A study of Mus musculus with 24 samples.

Results

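Hip caps were compared with metatarsals after both had been exposed to a hydrostatic pressure of 5 MPa, in the 4 hip cap and 4 metatarsal libraries of that pressure out of 24 libraries in the series. The members were chosen by their labels alone, as tissue and pressure. The hip caps (H51 to H54) were the cartilage caps of the femoral head of male mice aged 4 weeks, C57/BL6 in the labels and C57/BL6J in the study's methods, with the 2 caps of 1 mouse pooled per library. The metatarsals (M51 to M54) were cartilage rudiments of embryos of the same strain at embryonic day 15, of unknown sex, with 6 rudiments pooled per library. Hip caps were kept in DMEM GlutaMAX, and metatarsals in α-MEM with bovine serum albumin, β-glycerophosphate and ascorbate. All cultures were held for 24 h, pressurized for 1 h in a water-filled vessel and held for a further 24 h, and the labels name no transgene. Ribosomal RNA was depleted before sequencing, and the other 16 libraries were hip caps and metatarsals at 0 and 50 MPa.

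All 8 libraries were stranded, by the library type in their labels. As read from the study's clustering plot, which leaves some doubt, all 8 were sequenced in the same run. Neither library type nor run would then differ between the tissues here. Tissue, age, sex, culture medium and the number of pooled explants did differ together and cannot be told apart. In bulk RNA, fewer cells of a type and less RNA per cell cannot be told apart either. Nothing in the labels says whether metatarsals of a pool came from separate litters, so p-values measure the spread between these libraries.

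Cartilage is laid down by chondrocytes, which secrete type II collagen and the proteoglycan aggrecan. In articular cartilage the cells persist and the surface layer secretes lubricin, whereas in a growth plate they divide, enlarge into hypertrophic cells that make type X collagen, and give way to bone. The femoral head of a young mouse holds both an articular surface and cartilage that is turning to bone, and an embryonic metatarsal is a cartilage rod wrapped in perichondrium, with remnants of muscle, tendon and skin where dissection leaves them.

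Total counts were 12736413 to 25104240 in hip caps (median 21552922) and 12404537 to 18143811 in metatarsals (median 14278466). The most abundant gene, ENSMUSG00000119584, has no symbol in the annotation used, and it made up 17.3% to 31.3% of the counts of the hip caps and 9.39% to 16.6% of those of the metatarsals, with means of 26.3 ± 6.41% and 12.9 ± 3.63% (SD, n = 4; p = 0.0286 in a two-sided exact permutation test, which is as low as 4 libraries against 4 allow). Counts were scaled by TMM and are given as CPM, counts relative to the scaled library total, in the order of replicates 1 to 4 of each tissue. Hip cap library H53 stood apart. It was the lowest hip cap library for 7 of 7 cartilage collagens and 11 of 12 cartilage proteoglycans and adaptor proteins, and the highest for 10 of 10 endothelial, 11 of 11 macrophage, 9 of 9 osteoclast and 26 of 26 cell cycle genes tested. Without H53, 24 genes of the lists newly passed the threshold used below and 9 no longer passed or could not be tested, and values without H53 are given where they change a call described below.

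The quasi-likelihood test of edgeR was run on 19020 genes, and 8318 (43.7%) passed an adjusted p-value (Benjamini-Hochberg) of 0.05. Of all genes tested, 4472 (23.5%) were higher and 3846 (20.2%) lower in hip caps. The libraries of both tissues did not overlap for 8300 genes (43.6%). An absolute log2 fold change of at least 1 was reached by 1978 of the higher and 2084 of the lower genes. Over all genes the log2 fold change had a median of -0.01. It was -0.68 when library sizes alone were used for scaling, and 1342 genes were then higher and 10222 lower, so log2 fold changes between 0 and about that size turn sign with the scaling. Where the direction of a gene past the threshold does so below, this is stated, and the signs of small values that did not pass are not read as directions. Among the 454 genes tested from 40 lists of cartilage, growth factor, patterning and cell type genes, 334 passed the threshold, a share to be read against the 43.7% of all genes because the lists had been picked for these tissues.

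**Figure D1:**
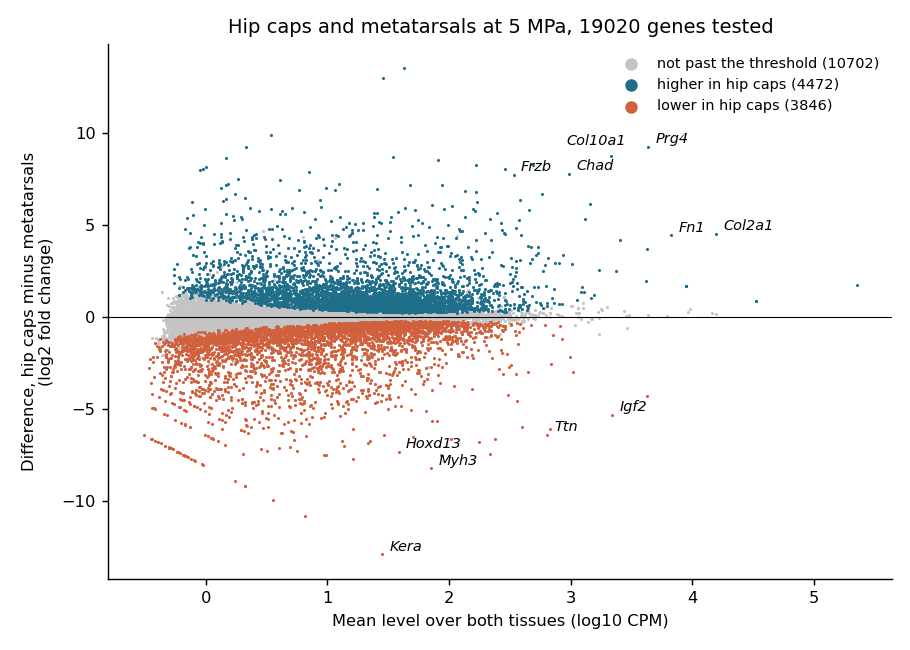
Difference between the tissues (log2 fold change, hip caps minus metatarsals) against the mean level of each gene (log10 CPM) at 5 MPa, with 1 point per gene of 19020 tested. Blue points mark the 4472 genes higher and orange points the 3846 genes lower in hip caps, grey points did not pass the threshold, and labelled genes lie at both ends.

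All 7 collagens of the cartilage fibril (types II, IX, XI and XXVII) and all 12 cartilage proteoglycans and adaptor proteins were higher in hip caps, with median log2 fold changes of 2.50 and 4.34. Their summed level was 20920 to 52580 CPM for the collagens in hip caps against 2279 to 3620 CPM in metatarsals, and 8675 to 16370 CPM against 549.8 to 824.0 CPM for the proteoglycans and adaptors. Without H53 the counts were the same and the medians were 2.74 and 4.57.

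Col2a1 (ENSMUSG00000022483), the chain of type II collagen, took the most counts of any named protein-coding gene that was higher in hip caps, with a mean of 2.43% of a library. It had 26810, 36360, 16290 and 40600 CPM in hip caps and 931, 1727, 1048 and 1604 CPM in metatarsals. The lowest hip cap library, H53, was still above every metatarsal library, and the difference was 22.6-fold between the means (log2 fold change 4.50, SE 0.36, adjusted p = 5.13e-06 from edgeR). Acan, the core protein of aggrecan, had 4618, 5508, 2687 and 6400 CPM in hip caps and 208, 326, 206 and 337 CPM in metatarsals. Every hip cap library exceeded every metatarsal library at least several times over (log2 fold change 4.16, SE 0.32, adjusted p = 3.5e-06 from edgeR).

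The widest gaps in this group were not in aggrecan but in smaller secreted proteins. Chad (chondroadherin, a leucine-rich protein that binds integrins and collagen) had 2121, 2178, 1409 and 2038 CPM in hip caps and 8.53, 9.7, 9.19 and 8.52 CPM in metatarsals. Cytl1, a cytokine-like protein of cartilage, had 1211, 1239, 734 and 687 CPM in hip caps and 4.02, 2.32, 3.3 and 2.88 CPM in metatarsals. Clec3a, a C-type lectin of cartilage, had 428, 372, 227 and 309 CPM in hip caps and 1.23, 0.595, 0.518 and 1.95 CPM in metatarsals. Their log2 fold changes were 7.75 (SE 0.21), 8.27 (SE 0.32) and 8.22 (SE 0.44), with adjusted p = 1.43e-08, 7.69e-08 and 1.39e-06 from edgeR, and in none of the 3 did a metatarsal library reach 11 CPM. Comp, the cartilage oligomeric matrix protein, had 2756, 2811, 1583 and 2978 CPM in hip caps and 54.2, 69, 64.3 and 71.4 CPM in metatarsals. The hip caps lay far above the metatarsals, with H53 the lowest of them (log2 fold change 5.29, SE 0.24, adjusted p = 1.63e-07 from edgeR). At the other end of the group Hapln1, the link protein, differed least, by 2.95 (SE 0.24, adjusted p = 5.12e-06 from edgeR).

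Other matrix proteins high in hip caps were Fn1 (fibronectin) and Sparc, a collagen-binding glycoprotein. Fn1 had 15030, 10470, 10390 and 14980 CPM in hip caps and 588, 711, 605 and 466 CPM in metatarsals. Sparc had 8332, 9128, 5645 and 8332 CPM in hip caps and 638, 531, 689 and 549.6 CPM in metatarsals. Neither overlapped between the tissues (log2 fold changes 4.42, SE 0.23, and 3.71, SE 0.21; adjusted p = 3.54e-07 and 4.75e-07 from edgeR). Gpx3, a secreted glutathione peroxidase, had 589.5, 477, 487 and 732 CPM in hip caps and 1.72, 2.38, 1.94 and 2.65 CPM in metatarsals. Every hip cap lay far above every metatarsal, 263-fold by the means (log2 fold change 8.03, SE 0.23, adjusted p = 1.43e-08 from edgeR). F5, coagulation factor V, had 184, 182, 101 and 178 CPM in hip caps and 0.539, 0.238, 0.194 and 0.698 CPM in metatarsals. H53 was low among the hip caps but far above the metatarsals, all of which were under 1 CPM (log2 fold change 8.50, SE 0.36, adjusted p = 2.84e-07 from edgeR).

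The small leucine-rich proteoglycans, which bind collagen fibrils and set their thickness, were split. Of 11 members, 6 were higher and 4 lower in hip caps. Dcn (decorin) had 2027, 1549, 1185 and 1587 CPM in hip caps and 146, 152, 183 and 143 CPM in metatarsals, without overlap (log2 fold change 3.35, SE 0.19, adjusted p = 4.75e-07 from edgeR). Prelp, Omd, Epyc, Fmod and Bgn were the other higher members, with log2 fold changes of 5.25, 4.70, 2.88, 2.78 and 0.89. Lum (lumican) differed by -0.42 (SE 0.17, adjusted p = 0.0651 from edgeR), which did not pass.

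The lower members were Kera, Aspn, Podn and Ogn. Kera (keratocan, ENSMUSG00000019932), a keratan sulfate proteoglycan also found in tendon and cornea, had 0 counts in all 4 hip caps and 42.1, 49.1, 80.2 and 54.2 CPM in metatarsals. Against a floor of 3 counts per library, the deficit in hip caps was at least 288.5-fold (edgeR, adjusted p = 6.2e-06). Aspn (asporin), which is made in perichondrium and periodontal ligament, had 4.19, 3.1, 3.38 and 1.77 CPM in hip caps and 328, 310.1, 405 and 351 CPM in metatarsals. The 4 hip caps were all far below the 4 metatarsals (log2 fold change -6.81, SE 0.26, adjusted p = 6.27e-08 from edgeR). Podn and Ogn were lower, at -2.93 and -1.38 on the log2 scale.

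Prg4 (ENSMUSG00000006014), which encodes lubricin, the lubricant of the articular surface, had 12040, 7560, 9273 and 5831 CPM in hip caps and 16.3, 11.2, 9.71 and 19.7 CPM in metatarsals. The lowest hip cap was far above the highest metatarsal, and the means differed 609.8-fold (log2 fold change 9.25, SE 0.40, adjusted p = 1.08e-07 from edgeR). Cilp, a protein of the cartilage matrix, and Clu (clusterin) were also higher, by 3.79 and 3.58 on the log2 scale. Gdf5, a growth factor of the embryonic joint interzone, went the other way with 3.17, 2.94, 4.08 and 5.42 CPM in hip caps and 20.9, 19, 21.2 and 16.5 CPM in metatarsals (log2 fold change -2.30, SE 0.20, adjusted p = 7.55e-06 from edgeR). Erg and Creb5, transcription factors of forming joint surfaces, had log2 fold changes of 0.16 (SE 0.12) and -0.08 (SE 0.17) that did not pass. The sign of Erg turned with library sizes alone.

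Of 16 genes of elastic microfibrils, 8 were lower and 4 higher in hip caps (median log2 fold change -1.06). Microfibrils are built of fibrillins, on which elastin and its partners are laid. Fbn2, the fibrillin of embryonic tissue, had 7.16, 4.38, 5.71 and 1.82 CPM in hip caps and 447, 516, 481 and 443 CPM in metatarsals. Fbn1, the fibrillin that persists in adults, had 282, 284, 429.7 and 223 CPM in hip caps and 262, 338, 274 and 214 CPM in metatarsals. The first separated the tissues completely (log2 fold change -6.63, SE 0.39, adjusted p = 1.84e-06 from edgeR), and the second overlapped between them (0.16, SE 0.21, adjusted p = 0.547 from edgeR). Mfap4 (ENSMUSG00000042436), a microfibril protein, had 0.945, 0.796, 1.57 and 0.387 CPM in hip caps and 158, 144, 202 and 174 CPM in metatarsals, which was 183-fold lower by the means (log2 fold change -7.51, SE 0.31, adjusted p = 2.05e-07 from edgeR). Eln (elastin) had 3.38, 2.79, 1.63 and 2.99 CPM in hip caps and 76.2, 90.2, 80.5 and 63.3 CPM in metatarsals (log2 fold change -4.85, SE 0.21, adjusted p = 1.15e-07 from edgeR). Emilin1, Efemp2, Efemp1 and Ltbp3 were the higher members, at 1.67, 1.19, 1.00 and 0.50, and the sign of Ltbp3 turned with library sizes alone.

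Among 16 genes of perichondrium, tendon and fibroblasts, 10 were lower and 2 higher in hip caps. Col14a1, Twist2, Postn, Col3a1 and the tendon genes Tnmd and Scx were lower, with log2 fold changes of -5.14, -3.38, -3.11, -2.99, -3.46 and -1.32. Col3a1 and Col5a1 were also 2 of the 5 genes with the largest share of metatarsal counts among those lower in hip caps. Col3a1 had 272, 194, 373 and 100.3 CPM in hip caps and 1738, 2163, 2031 and 1514 CPM in metatarsals. Col5a1 had 397, 364, 683 and 471 CPM in hip caps and 917, 1200, 933 and 797 CPM in metatarsals, a smaller gap without overlap (log2 fold change -1.01, SE 0.21, adjusted p = 0.00322 from edgeR). Tnc and Thbs4 were higher in hip caps by 3.13 and 3.08. Col1a1, the main chain of bone and fibrous collagen, had 1677, 964, 6056 and 561 CPM in hip caps and 3702, 3497, 3968 and 2905 CPM in metatarsals. H53 alone was above the metatarsals, the other 3 hip caps were below them, and the gene did not pass with all libraries (log2 fold change -0.60, SE 0.67, adjusted p = 0.497 from edgeR). Without H53 it was lower in hip caps, at a log2 fold change of -1.70 (adjusted p = 0.0117 from edgeR), Col1a2 at -0.84 (adjusted p = 0.00401), and 12 of the 16 genes were lower.

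Enzymes that cut the matrix differed in both directions. Of 13 proteases and inhibitors, 6 were higher and 3 lower. Mmp13, the collagenase of hypertrophic cartilage, had 1144, 904, 1536 and 1047 CPM in hip caps and 12.1, 13.7, 6.93 and 12.4 CPM in metatarsals (log2 fold change 6.68, SE 0.28, adjusted p = 1.09e-07 from edgeR). Mmp3 (stromelysin) had 616, 403, 494 and 577 CPM in hip caps and 17.3, 13.7, 11.1 and 18.1 CPM in metatarsals (log2 fold change 5.11, SE 0.21, adjusted p = 9.65e-08 from edgeR). Both were far apart, and Mmp9, Timp1, Timp3 and Mmp12 were higher as well, by 4.84, 3.40, 1.83 and 1.80. Mmp2, Mmp14 and Adamts1 were lower, at -1.80, -1.22 and -1.17. The aggrecanases Adamts4 and Adamts5 had log2 fold changes of -0.11 (SE 0.36) and 0.12 (SE 0.16), which did not pass. Without H53, Adamts4 and Timp2 were lower, at -0.57 and -0.35 (adjusted p = 0.0462 and 0.0289 from edgeR), which made 5 of the 13 lower.

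Genes of glycosaminoglycan synthesis were mostly higher, with 14 of 19 genes higher and 3 lower (median 0.69), although 7 passed as higher with library sizes alone and 8 with all 24 libraries in the fit. Chst11, the chondroitin 4-O-sulfotransferase needed for cartilage growth, had 525, 606, 322 and 743 CPM in hip caps and 18.1, 27.6, 22.5 and 30.8 CPM in metatarsals. It had the largest difference of the list (log2 fold change 4.47, SE 0.29, adjusted p = 1.84e-06 from edgeR). Xylt1, which starts the chains, Papss2, which makes the sulfate donor, and Slc26a2, the sulfate transporter, were higher by 3.05, 2.79 and 2.56. Chst3, Has2 and Xylt2 were lower, at -0.95, -0.65 and -0.66. Chsy1, Ext1, B3gat3 and B4galt7 were higher by at most 0.56, and their sign turned with library sizes alone. Of 20 genes of the secretory pathway that folds and exports matrix proteins, 16 were higher and 0 lower, with a median of 0.73 (0.06 with library sizes alone) and the largest difference in the collagen lysyl hydroxylase Plod2 at 1.74 (SE 0.27, adjusted p = 0.000555 from edgeR). With that scaling 4 of the 20 passed as higher (Hspa5, Calr, Pdia4 and Plod2) and Canx, Creb3l2, Sec24d, Kdelr2 and Kdelr3 turned sign, and 7 passed as higher with all 24 libraries in the fit.

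**Figure D2:**
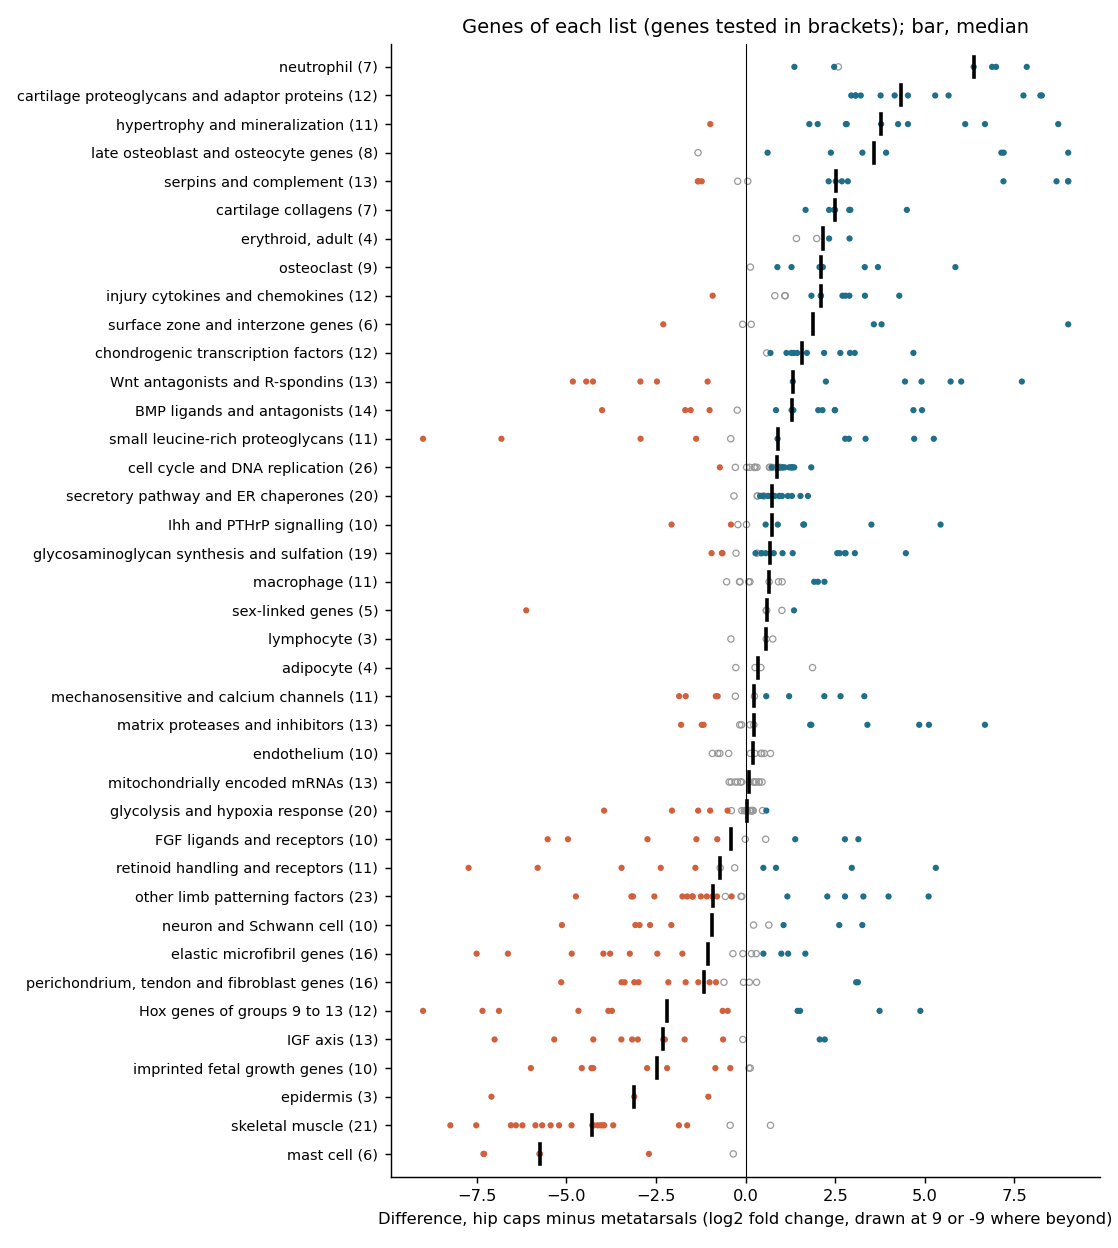
Log2 fold change (hip caps minus metatarsals) of each tested gene of the lists with at least 3 tested genes, 1 row per list, ordered by the median (black bar); values beyond 9 or -9 are drawn there. Filled points passed the threshold and open points did not. Cartilage proteoglycans, hypertrophy genes and neutrophil genes lie to the right, and mast cell, skeletal muscle, imprinted and IGF genes to the left.

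The regulators of chondrocytes were higher in hip caps as well. Of 12 chondrogenic transcription factors, 11 were higher and 0 lower. Sox9, which is required for the chondrocyte fate, had 562, 593, 369 and 782 CPM in hip caps and 105, 167, 115 and 119 CPM in metatarsals (log2 fold change 2.19, SE 0.23, adjusted p = 3.97e-05 from edgeR). Its partners Sox5 and Sox6 differed less, by 0.69 (SE 0.22, adjusted p = 0.0282 from edgeR) and 0.59 (SE 0.22, adjusted p = 0.0524 from edgeR). Sox5 overlapped between the tissues and did not pass in 9 alternatives. Sox6 did not pass and its sign turned with library sizes alone, but it passed without H53 (0.81, adjusted p = 3.16e-05 from edgeR). Runx2, a driver of hypertrophy, was higher by 2.64 (SE 0.12, adjusted p = 1.75e-07 from edgeR). Foxa2, a forkhead factor of hypertrophic chondrocytes, had 12.2, 10.8, 9.31 and 14.1 CPM in hip caps and 0.638, 0.416, 0.453 and 0.279 CPM in metatarsals. It was under 1 CPM in every metatarsal library (log2 fold change 4.68, SE 0.27, adjusted p = 5.09e-07 from edgeR).

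Of 11 genes of hypertrophy and mineralization, 10 were higher in hip caps and 1 lower, with a median of 3.78. Col10a1 (ENSMUSG00000039462), type X collagen of hypertrophic cells, had 3548, 5058, 2884 and 5752 CPM in hip caps and 33.5, 0.595, 2.65 and 3.86 CPM in metatarsals. Hip caps lay within a factor of 2 of each other, whereas M51 had far more than the other 3 metatarsals, of which M52 was under 1 CPM. The log2 fold change was 8.72 (SE 1.44, adjusted p = 0.00234 from edgeR), and it was 10.80 without M51. Spp1 (osteopontin) had 2670, 2443, 3685 and 2595 CPM in hip caps and 35.3, 42.1, 43.6 and 42 CPM in metatarsals (log2 fold change 6.13, SE 0.20, adjusted p = 3.25e-08 from edgeR). Ibsp (bone sialoprotein), which appears with mineral, had 1074, 885, 1233 and 1080 CPM in hip caps and 240, 59.4, 192 and 113 CPM in metatarsals. Every hip cap was above every metatarsal (log2 fold change 2.82, SE 0.40, adjusted p = 0.000449 from edgeR). Alpl, Panx3, Ank, Sp7, Enpp1 and Phospho1 were higher by 4.53, 4.25, 3.78, 2.80, 2.01 and 1.78.

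Vegfa, the angiogenic factor that hypertrophic cells release, was the member against the list. It had 142, 147, 114 and 237 CPM in hip caps and 314, 477, 226 and 250 CPM in metatarsals. H54 was above M53, the other libraries did not cross, and the gene was lower in hip caps (log2 fold change -0.99, SE 0.28, adjusted p = 0.0194 from edgeR). It did not pass without H53 (-0.83, adjusted p = 0.0863 from edgeR), nor without H51, H52 or the filter on counts.

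The promoter of Col10a1 is printed because the gene was nearly silent in one tissue and abundant in the other, and that of Myh3, a myosin of embryonic muscle described below, because it did the reverse. Both are the 250 bases before the RefSeq start on the forward strand of GRCm38.p6, from chr10:34389731-34389980 and chr11:67078050-67078299, and capitals mark TATAAA, the core of a TATA box, searched on both strands.
Col10a1: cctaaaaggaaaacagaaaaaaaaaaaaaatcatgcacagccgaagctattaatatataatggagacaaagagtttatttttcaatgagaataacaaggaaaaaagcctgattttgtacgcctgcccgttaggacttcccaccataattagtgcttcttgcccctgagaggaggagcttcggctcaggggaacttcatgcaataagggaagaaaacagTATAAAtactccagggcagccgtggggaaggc
Myh3: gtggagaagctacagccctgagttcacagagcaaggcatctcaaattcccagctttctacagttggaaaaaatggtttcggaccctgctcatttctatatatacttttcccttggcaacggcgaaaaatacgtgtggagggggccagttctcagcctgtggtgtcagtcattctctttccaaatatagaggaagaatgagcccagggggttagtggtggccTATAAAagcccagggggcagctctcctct
The match began 32 bases before the start of Col10a1 and 29 bases before that of Myh3. It occurred in these windows in 14.3% of 27025 genes with a RefSeq promoter. In the hypertrophy list 5 of the 9 genes with a promoter held it (55.6%), in the skeletal muscle list 5 of 17 (29.4%), in the cartilage collagens 1 of 5 (20.0%), in the cartilage proteoglycans and adaptors 1 of 9 (11.1%) and in the Hox list 2 of 9 (22.2%). The E-box CAGCTG occurred in 5 of the 17 muscle genes (29.4%) and in 14.7% of all, the E-box CACCTG in 4 of the 17 (23.5%) and in 19.4% of all, and the MEF2 consensus in 2 of the 17 (11.8%) and in 3.42% of all. The promoters shown were chosen after the matches were seen, and a match describes letters, not a site in use.

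Indian hedgehog and its partners, which time the step into hypertrophy, followed the same direction on the ligand and receptor side but not in all targets. Ihh had 69.8, 67.3, 49.2 and 75.9 CPM in hip caps and 2.75, 1.31, 0.842 and 1.02 CPM in metatarsals (log2 fold change 5.44, SE 0.33, adjusted p = 2.44e-06 from edgeR). Pth1r, the receptor of the parathyroid hormone-related protein, had 365, 419, 371 and 492 CPM in hip caps and 38, 32.4, 39.8 and 34.4 CPM in metatarsals (log2 fold change 3.51, SE 0.14, adjusted p = 7.85e-08 from edgeR). No hip cap overlapped a metatarsal in either gene. The ligand gene Pthlh and the hedgehog targets Ptch1 and Hhip were higher by 1.61, 1.63 and 0.90. Gli1, another hedgehog target, had 55.7, 58, 34.9 and 58.8 CPM in hip caps and 51.8, 41, 52.9 and 58.1 CPM in metatarsals. The tissues overlapped, with H53 the lowest library, and the log2 fold change was 0.02 (SE 0.17, adjusted p = 0.922 from edgeR). Gli2 was lower, at -0.41, and 6 of the 10 genes were higher in all, of which Smo turned sign with library sizes alone.

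**Figure D3:**
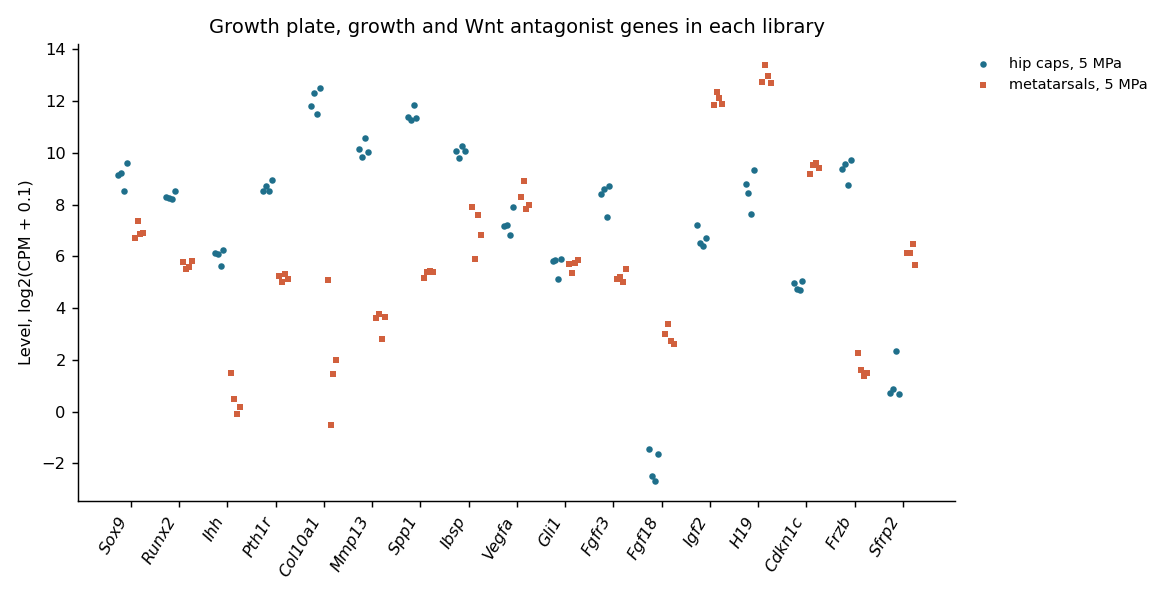
Level (log2 of CPM + 0.1) of growth plate, growth and Wnt antagonist genes in each of the 4 hip cap libraries (blue circles) and 4 metatarsal libraries (orange squares) at 5 MPa. The tissues are apart in Col10a1, Ihh, Mmp13 and Frzb, which are higher in hip caps, and in Igf2, H19, Cdkn1c, Fgf18 and Sfrp2, which are lower, and they overlap in Gli1 and Vegfa; in Col10a1, M51 lies above the other metatarsals.

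Late osteoblast and osteocyte genes were higher in hip caps in 7 of the 8 tested (median 3.59), the other being Ifitm5 (-1.33, SE 0.63, not past the threshold). Without H53, Ifitm5 was lower in hip caps, at -2.52 (adjusted p = 1.33e-05 from edgeR). Sost (sclerostin of osteocytes) had 21, 25.4, 18.8 and 34.6 CPM in hip caps and 0.343, 0, 0.324 and 0 CPM in metatarsals (log2 fold change 7.20, SE 0.56, adjusted p = 1.04e-05 from edgeR). Mepe had 0 counts in every metatarsal and was at least 41.5-fold higher in hip caps, and Bglap (osteocalcin) at least 17.8-fold. Phex was higher by 0.61 and its sign turned with library sizes alone. Bglap2 had too few counts to be tested.

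Osteoclast genes, of cells that resorb bone and calcified cartilage, were higher in 8 of 9 tested (median 2.11, and 1.84 with 8 higher without H53). Acp5 (tartrate-resistant acid phosphatase) had 332, 229, 516 and 160.4 CPM in hip caps and 6.57, 4.82, 6.15 and 3.86 CPM in metatarsals (log2 fold change 5.85, SE 0.42, adjusted p = 9.61e-06 from edgeR). All hip caps were far above the metatarsals, with H53 the highest and H54 the lowest. Nfatc1 differed by 0.13 (SE 0.14) and did not pass.

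The secreted antagonists of Wnt signalling, which hold back β-catenin, divided between the tissues. Of 13 tested with the R-spondins, 7 were higher and 6 lower, and Rspo1 had too few counts to be tested. Frzb (ENSMUSG00000027004), a frizzled-related protein of articular cartilage, had 662, 762, 436 and 852 CPM in hip caps and 4.71, 2.92, 2.52 and 2.75 CPM in metatarsals. Wif1, the Wnt inhibitory factor, had 217, 225, 189 and 203 CPM in hip caps and 3.58, 3.21, 3.3 and 2.79 CPM in metatarsals. Both were widely separated (log2 fold changes 7.71, SE 0.32, and 6.01, SE 0.13; adjusted p = 1.13e-07 and 3.55e-09 from edgeR). Sfrp5, Notum, Sfrp4 and Dkk1 were higher too, by 4.91, 4.45, 2.24 and 1.32. Sfrp2 had 1.55, 1.75, 4.95 and 1.49 CPM in hip caps and 69.8, 70.4, 88.8 and 51.1 CPM in metatarsals. It was 1 of 4 antagonists that were higher in metatarsals (log2 fold change -4.82, SE 0.40, adjusted p = 2.81e-05 from edgeR), with Dkk2, Sfrp1 and Dkk3 at -4.26, -2.93 and -2.47. The R-spondins, which raise Wnt signals, were also split, with Rspo4 higher (at least 32.7-fold) and Rspo2 and Rspo3 lower (-4.45 and -1.06).

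BMP genes were mostly higher in hip caps, with 9 of 14 higher and 4 lower. Chrdl1, a secreted BMP antagonist, had 218, 318, 146 and 296 CPM in hip caps and 8.68, 8.27, 11.8 and 9.4 CPM in metatarsals (log2 fold change 4.68, SE 0.27, adjusted p = 9.8e-07 from edgeR). Bmp8a, Bmp3, Gdf10 and Grem1 were higher by 4.92, 2.14, 2.49 and 2.03, and Gdf6, Chrd, Bmp4 and Bmp5 were lower, at -4.00, -1.68, -1.53 and -1.01.

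Of 10 FGF ligands and receptors, 3 were higher and 5 lower in hip caps. Fgfr3, the receptor that restrains growth plate proliferation, had 337, 388, 185 and 417 CPM in hip caps and 34.9, 36.9, 32.4 and 45.5 CPM in metatarsals (log2 fold change 3.15, SE 0.25, adjusted p = 6.83e-06 from edgeR). Fgf18, a ligand of it that is made in perichondrium, had 0.27, 0.0796, 0.0582 and 0.221 CPM in hip caps and 7.8, 10.2, 6.54 and 6.05 CPM in metatarsals (log2 fold change -5.52, SE 0.38, adjusted p = 1.91e-06 from edgeR). The receptor was thus higher in every hip cap and the ligand higher in every metatarsal. Fgf10, Fgfr4, Fgf9 and Fgf2 were lower in hip caps, at -4.96, -2.74, -1.37 and -0.79, Fgf1 and Fgfr1 were higher by 2.77 and 1.38, and Fgfr2 had a log2 fold change of -0.01 (SE 0.09, not past the threshold).

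Genes of fetal growth were mostly lower in hip caps. Of 13 genes of the insulin-like growth factor axis, 10 were lower and 2 higher, and of 10 imprinted genes of fetal growth, 8 were lower and 0 higher (medians -2.30 and -2.47). Igf2 (ENSMUSG00000048583), the fetal growth factor, took the most counts of any protein-coding gene lower in hip caps, with a mean of 0.544% of a metatarsal library. It had 146, 90.2, 83.9 and 103 CPM in hip caps and 3648, 5259, 4451 and 3793 CPM in metatarsals (log2 fold change -5.34, SE 0.25, adjusted p = 1.75e-07 from edgeR). H19, the imprinted non-coding neighbour of Igf2, had 438, 346, 199 and 651 CPM in hip caps and 6826, 10780, 7970 and 6641 CPM in metatarsals (log2 fold change -4.30, SE 0.37, adjusted p = 9.88e-06 from edgeR). Both were at least several-fold apart in every pair of libraries.

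Igfbp2, an IGF binding protein, had 0.0675, 0, 0.407 and 0.277 CPM in hip caps and 23.1, 30.1, 28.9 and 27 CPM in metatarsals (log2 fold change -7.00, SE 0.38, adjusted p = 4.75e-07 from edgeR). Igfbp5, another, had 79.5, 72.4, 173 and 67.3 CPM in hip caps and 772, 951, 811 and 621 CPM in metatarsals (log2 fold change -3.01, SE 0.32, adjusted p = 6.37e-05 from edgeR). H53 was the highest hip cap in both and stayed under the metatarsals. Igf2bp1 and Igf2bp3, RNA-binding proteins of fetal tissue, were lower, at -4.25 and -3.17, and Igf1, at -3.47, while Igfbp7 and Igfbp6 were higher by 2.21 and 2.07. Cdkn1c (p57), an imprinted inhibitor of the cell cycle, had 31.6, 26.5, 25.6 and 32.7 CPM in hip caps and 580, 729, 785 and 673 CPM in metatarsals (log2 fold change -4.57, SE 0.16, adjusted p = 3.79e-08 from edgeR). Dlk1, Mest and Meg3 were lower, at -5.99, -4.25 and -2.19. Peg3 and Ndn did not pass, with log2 fold changes of 0.09 (SE 0.24) and 0.13 (SE 0.12), but without H53 Peg3 was higher by 0.33 (adjusted p = 0.0305 from edgeR), with 8 of the list lower. Ptn (pleiotrophin), a heparin-binding growth factor of fetal cartilage, had 1.82, 2.39, 3.38 and 2.38 CPM in hip caps and 403, 402, 468 and 454 CPM in metatarsals. Hip caps and metatarsals were far apart (log2 fold change -7.43, SE 0.20, adjusted p = 1.43e-08 from edgeR). Gnas, an imprinted locus of a G protein subunit, had 623, 662, 682 and 706 CPM in hip caps and 835, 954, 1085 and 949 CPM in metatarsals. It took a large share of counts in both tissues and was lower, with a log2 fold change of -0.52 (SE 0.12, adjusted p = 0.00625 from edgeR), but it did not pass with all 24 libraries in the fit (adjusted p = 0.228).

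Retinoid genes also separated. Crabp1, a cellular retinoic acid binding protein, had 0, 0.398, 0.175 and 0.0553 CPM in hip caps and 29.7, 20.6, 42.1 and 36.5 CPM in metatarsals (log2 fold change -7.73, SE 0.48, adjusted p = 1.99e-06 from edgeR). Rbp4, which carries retinol outside cells, had 362, 414, 308 and 614 CPM in hip caps and 11.9, 8.8, 10.0 and 12.1 CPM in metatarsals (log2 fold change 5.31, SE 0.25, adjusted p = 1.91e-07 from edgeR). In all, 5 of 11 tested were lower, among them Crabp2 and Rarb (-5.80 and -3.46), and 4 were higher, of which Rarg turned sign with library sizes alone. Lrp1b, an endocytic receptor of the LDL receptor family, had 0.0675, 0.318, 0.0582 and 0 CPM in hip caps and 21.6, 18.6, 16.6 and 20.4 CPM in metatarsals (log2 fold change -7.53, SE 0.41, adjusted p = 4.21e-07 from edgeR).

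Channels that respond to pressure, stretch or swelling differed by gene. Of 11, 5 were higher and 4 lower. Trpv4, a calcium channel of chondrocytes that opens with swelling, had 192, 209.7, 94.9 and 239.8 CPM in hip caps and 15.1, 17.7, 15.5 and 25.9 CPM in metatarsals (log2 fold change 3.31, SE 0.31, adjusted p = 4.1e-05 from edgeR). Piezo1, a stretch-gated channel, had 270.2, 250.1, 299 and 273 CPM in hip caps and 117, 134, 119.6 and 101 CPM in metatarsals (log2 fold change 1.21, SE 0.12, adjusted p = 1.59e-05 from edgeR). Piezo2, its relative of sensory cells, had 25.3, 18.6, 40.3 and 15.4 CPM in hip caps and 78.8, 75.7, 77.2 and 85.9 CPM in metatarsals (log2 fold change -1.67, SE 0.27, adjusted p = 0.000915 from edgeR). Piezo1 and Trpv4 were thus above in every hip cap and Piezo2 in every metatarsal. P2rx7 and Kcnk2 were higher by 2.65 and 2.20, Tmem63a by 0.58 (sign turned with library sizes alone), and Cacna1c, Trpc1 and Trpm4 were lower, at -1.85, -0.83 and -0.78.

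Injury cytokines and chemokines were higher in hip caps in 8 of 12 tested and lower in 1 (median 2.10). Ptgs2 (cyclooxygenase 2) had 59.7, 52.2, 59.3 and 70.3 CPM in hip caps and 3.29, 4.22, 2.07 and 2.75 CPM in metatarsals (log2 fold change 4.29, SE 0.20, adjusted p = 1.67e-07 from edgeR). Cxcl1, a chemokine that attracts neutrophils, had 52.5, 31.5, 54.9 and 35.5 CPM in hip caps and 3.53, 5.47, 4.14 and 4.23 CPM in metatarsals (log2 fold change 3.33, SE 0.22, adjusted p = 1.59e-06 from edgeR). Both were many times higher in every hip cap. Nos2, Il11, Cxcl2, Lif and Ccl2 were higher by 2.90, 2.79, 2.70, 2.10 and 2.10, and Cxcl5 was lower, at -0.92. Il1a and Tnf did not pass (1.11, SE 0.55, and 1.09, SE 0.45), and Il6 had too few counts to be tested.

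Hox genes differed by cluster and by group number. Hox genes lie in clusters, and the genes toward group 13 mark the hand and foot, whereas groups 9 and 10 act nearer the trunk. Of 14 genes of groups 9 to 13 in the A, C and D clusters, 12 could be tested, and 8 were lower and 4 higher in hip caps. In the D cluster on chromosome 2, Hoxd9 was higher by 1.52, and Hoxd10, Hoxd11, Hoxd12 and Hoxd13 were all lower. Hoxd13 (ENSMUSG00000001819) had 1.15, 0.318, 0.349 and 0.111 CPM in hip caps and 71, 76.3, 82.5 and 77.8 CPM in metatarsals (log2 fold change -7.34, SE 0.38, adjusted p = 8.28e-07 from edgeR). Hoxd12 had 0 counts in all 4 hip caps and 14, 10.4, 13.9 and 14 CPM in metatarsals, a deficit of at least 66.9-fold (edgeR, adjusted p = 1.31e-06). Hoxd11 had 0.81, 0.239, 0.0582 and 0.332 CPM in hip caps and 42.8, 44.4, 31.9 and 50.9 CPM in metatarsals (log2 fold change -6.88, SE 0.40, adjusted p = 1.31e-06 from edgeR). The hip caps were near zero in all 3 and the metatarsals far above them. Hoxd10 was lower, at -3.83.

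In the A cluster on chromosome 6 the difference grew with group number, from -0.50 in Hoxa9 and -0.64 in Hoxa10 to -3.73 in Hoxa11 and -4.66 in Hoxa13. Hoxa13 had 1.08, 1.59, 0.466 and 0.664 CPM in hip caps and 23.1, 22.4, 28.2 and 19.9 CPM in metatarsals (adjusted p = 1.04e-06 from edgeR). The C cluster on chromosome 15 ran the other way. Hoxc10 had 24.9, 24.6, 29.9 and 30.8 CPM in hip caps and 0.981, 0.714, 1.1 and 0.931 CPM in metatarsals (log2 fold change 4.88, SE 0.17, adjusted p = 3.8e-08 from edgeR). Every hip cap was above 20 CPM and every metatarsal near 1 CPM. Hoxc9 and Hoxc11 were higher by 3.74 and 1.45, and Hoxc12 and Hoxc13 had too few counts in both tissues to be tested. Neighbouring Hox transcripts overlap, so reads may have been shared between them. Requiring at least 10 counts in every library removed the Hox genes that were near zero in hip caps and turned the median of the list from -2.19 to 1.39.

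**Figure D4:**
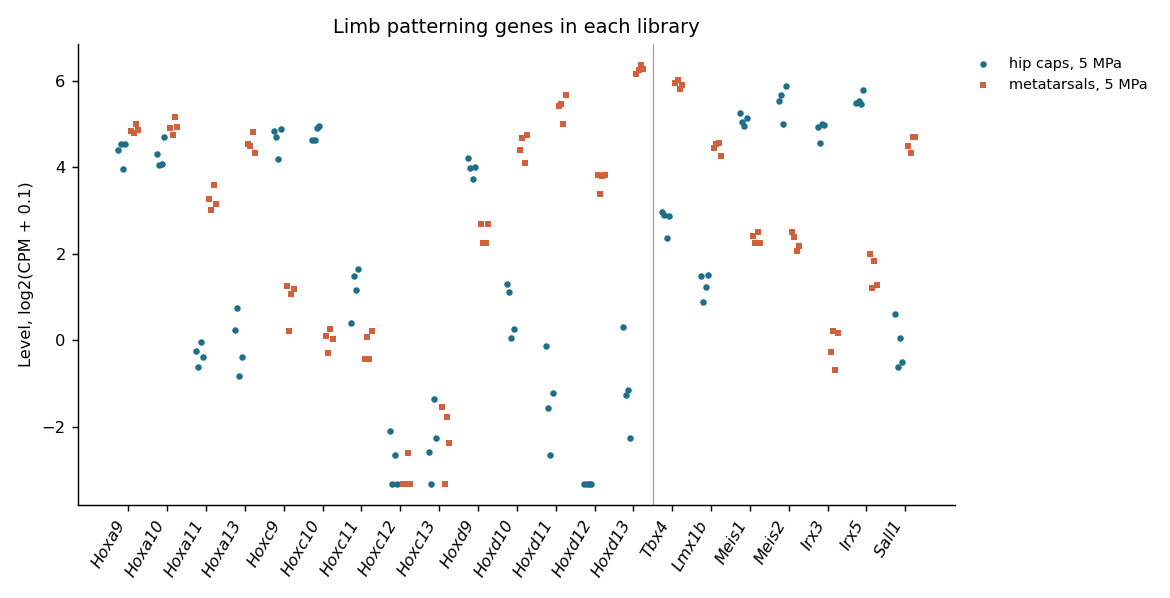
Level (log2 of CPM + 0.1) of 14 Hox genes (left of the line) and 7 other limb patterning genes in each of the 4 hip cap (blue circles) and 4 metatarsal (orange squares) libraries at 5 MPa. Metatarsals are above hip caps in Hoxa11, Hoxa13 and Hoxd10 to Hoxd13, and below them in Hoxc9, Hoxc10, Meis1, Meis2, Irx3 and Irx5.

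The promoter of Hoxd13 is shown because it belongs to the group with the highest number and stands at the end of the cluster. It is the 250 bases before the RefSeq start (GRCm38.p6, forward strand, chr2:74667975-74668224), and capitals mark TATAAA on either strand, here on both strands and overlapping.
Hoxd13: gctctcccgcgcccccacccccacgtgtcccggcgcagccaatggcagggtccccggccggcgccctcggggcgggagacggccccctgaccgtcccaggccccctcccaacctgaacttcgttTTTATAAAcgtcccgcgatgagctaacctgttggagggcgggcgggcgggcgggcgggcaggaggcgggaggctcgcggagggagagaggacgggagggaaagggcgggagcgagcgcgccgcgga
The matches began 126 and 124 bases before the start, farther away than those of Col10a1 and Myh3.

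Other patterning genes also differed. Meis2, a homeobox factor of the proximal limb bud, had 46.5, 51.2, 31.8 and 58.6 CPM in hip caps and 5.54, 5.17, 4.08 and 4.42 CPM in metatarsals (log2 fold change 3.29, SE 0.20, adjusted p = 7.56e-07 from edgeR). Irx3, which is needed for the proximal skeleton of the hindlimb, had 30.5, 23.6, 31.8 and 31.3 CPM in hip caps and 0.736, 1.07, 0.518 and 1.02 CPM in metatarsals (log2 fold change 5.11, SE 0.21, adjusted p = 8.97e-08 from edgeR). Both were higher in every hip cap, as were Irx5, Meis1, Dlx5 and Meis3 (3.99, 2.77, 2.28 and 1.16). Tbx4, a factor of hindlimb identity, had 7.77, 7.4, 5.06 and 7.24 CPM in hip caps and 61.3, 64.7, 56.1 and 60.1 CPM in metatarsals (log2 fold change -3.14, SE 0.14, adjusted p = 1.15e-07 from edgeR). It was present in both tissues and higher in metatarsals, as was Pitx1 (-1.63). Sall1, Lmx1b and Lhx9 were lower in hip caps, at -4.74, -3.19 and -2.55. In total, 6 of 23 tested were higher and 14 lower, and Sall4 had too few counts to be tested.

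Of 21 skeletal muscle genes tested, 0 were higher and 19 lower in hip caps, with a median of -4.28 (-4.23 with genes at the floor set to their limit). Their summed level was 46.6 to 93.7 CPM in hip caps and 1582 to 2658 CPM in metatarsals. Ttn (titin), the giant spring of the sarcomere, had 11.7, 11.8, 19.7 and 16.5 CPM in hip caps and 1030, 1710, 1041 and 1304 CPM in metatarsals (log2 fold change -6.41, SE 0.28, adjusted p = 1.09e-07 from edgeR). Myh3 (ENSMUSG00000020908), embryonic myosin heavy chain, had 0.27, 0.557, 0.757 and 0.277 CPM in hip caps and 111, 209, 117 and 131 CPM in metatarsals (log2 fold change -8.24, SE 0.36, adjusted p = 2.96e-07 from edgeR). Hip caps stayed under 1 CPM of Myh3, and M52 had the most in both genes.

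The factors that make muscle were included. Myog (myogenin) had 0.0675, 0, 0.116 and 0.166 CPM in hip caps and 11.5, 22.7, 18.6 and 22.3 CPM in metatarsals, at most 3 counts in any hip cap, a deficit of at least 96.0-fold (edgeR, adjusted p = 4.52e-07). Myod1 had 0.0675, 0.0796, 0.0582 and 0.277 CPM in hip caps and 7.55, 13.5, 7.7 and 11.3 CPM in metatarsals (log2 fold change -6.23, SE 0.42, adjusted p = 1.57e-06 from edgeR). Pax7, of muscle stem cells, was at least 6.88-fold lower. Tnni2, a troponin of fast muscle, and Ckm, muscle creatine kinase, did not pass. Tnni2 had 15.1, 21.1, 9.37 and 34.9 CPM in hip caps and 9.47, 15.5, 9.39 and 15.4 CPM in metatarsals, so that the tissues overlapped (0.69, SE 0.38), and the log2 fold change of Ckm was -0.43 (SE 0.35). Myf5 and Myf6 had too few counts to be tested.

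Marker genes of some other cells also differed. Mast cell genes were lower in hip caps in 5 of 6 tested. Cma1, the mast cell chymase, had 0, 0.239, 0 and 0.0553 CPM in hip caps and 7.06, 11.1, 15.3 and 11.8 CPM in metatarsals. It was at or near 0 in hip caps with a deficit of at least 57.8-fold (edgeR, adjusted p = 3.91e-06), as was Mcpt4 (at least 32.3-fold). Kit differed by -0.34 (SE 0.43) and did not pass, but without H53 it was lower, at -0.98 (adjusted p = 0.000305 from edgeR), and 6 of 6 were lower. Epidermal Krt15 had 0 counts in hip caps and Krt18 and Trp63 were lower, at -3.11 and -1.04, which were 3 of 3 tested, and Krt5 and Krt14 were at most 0.518 CPM in any library. Krt15, like Cma1 and Mcpt4, passed the filter on counts only through the metatarsals, so its direction followed from the filter. Of 10 neuron and Schwann cell genes tested, 5 were lower and 3 higher, with Nefl at least 9.89-fold lower and Mbp higher by 3.26.

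Neutrophil granule genes were higher in hip caps in 6 of 7 tested, with a median of 6.36, or 3.31 and 5 of 6 without H53. Members near 0 in metatarsals, such as S100a9 and Ngp, passed the filter on counts only through the hip caps. Their direction followed from the filter, so the count and the median are not a test of the list. S100a9 had 12.2, 3.1, 60.4 and 2.54 CPM in hip caps and 0.294, 0, 0.13 and 0.14 CPM in metatarsals (log2 fold change 6.99, SE 1.56, adjusted p = 0.00968 from edgeR). H53 was far above the other hip caps, and without it the log2 fold change was 5.29 (adjusted p = 0.00187 from edgeR). Ngp, another granule protein, had 10.3, 1.03, 43.8 and 0.995 CPM in hip caps and 0, 0, 0.13 and 0.0931 CPM in metatarsals. At most 2 counts were seen in any metatarsal, and the gene was at least 85.0-fold higher, with H53 and H51 far above H52 and H54 (adjusted p = 0.0146 from edgeR). Elane, Camp and Retnlg had too few counts to be tested.

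Macrophage genes were higher in 3 of 11 (Csf1r, Cd14 and Lyz2) and lower in 0. Among all genes tested, 23.5% were higher and 20.2% lower in hip caps, so the count of higher genes was near the general share. Lyz2 (lysozyme) had 124, 117, 553 and 72.9 CPM in hip caps and 36.4, 45.8, 65.3 and 41.3 CPM in metatarsals (log2 fold change 2.20, SE 0.68, adjusted p = 0.0341 from edgeR). The summed level of the list was 142.9 to 857.2 CPM in hip caps, the highest in H53, and 102.8 to 157.5 CPM in metatarsals. Without H53, 3 were higher and 4 lower, and Lyz2 was higher by 1.17 (adjusted p = 0.0112 from edgeR). Lyz2 did not pass without M51, M52 or M54, without the filter on counts or with library sizes alone. Of 10 endothelial genes, 0 passed in edgeR with all libraries (0 at an unadjusted p under 0.05, and 0 in DESeq2) and 4 were lower without H53, Kdr at -1.46 (adjusted p = 0.000136). Pecam1 had 39, 28.3, 81 and 29.1 CPM in hip caps and 33.8, 39, 40.1 and 35.8 CPM in metatarsals, with H53 above and the other hip caps within or under the metatarsals (log2 fold change 0.26, SE 0.33, adjusted p = 0.553 from edgeR).

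Of the remaining cells, blood and lymphocyte genes were low. The adipocyte list summed to 72.7 to 295.6 CPM in hip caps and 133.9 to 169.0 CPM in metatarsals. Adipoq (adiponectin) had 0, 10.6, 0.757 and 3.81 CPM in hip caps and 0.294, 0.119, 0.324 and 0.372 CPM in metatarsals, with H52 the highest, and was removed by the filter on low counts. Of 4 adipocyte genes and 3 lymphocyte genes tested, 0 passed in edgeR (1 and 0 at an unadjusted p under 0.05), whereas 3 and 2 of the members passed as higher in DESeq2, and 2 adipocyte genes passed without H51. Embryonic globins were at 0 counts in all hip caps and at most 0.196 CPM in metatarsals, and of 4 adult erythroid genes tested Hba-a2 and Alas2 were higher by 2.90 and 2.33 but overlapped between the tissues. Neither passed without H53 (adjusted p = 0.0537 and 0.0553 from edgeR), H51 or M53, 1 of the list passed without M51 or M54, and 4 passed without H52. The part of these other cells in the differences of matrix and growth genes was not tested.

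**Figure D5:**
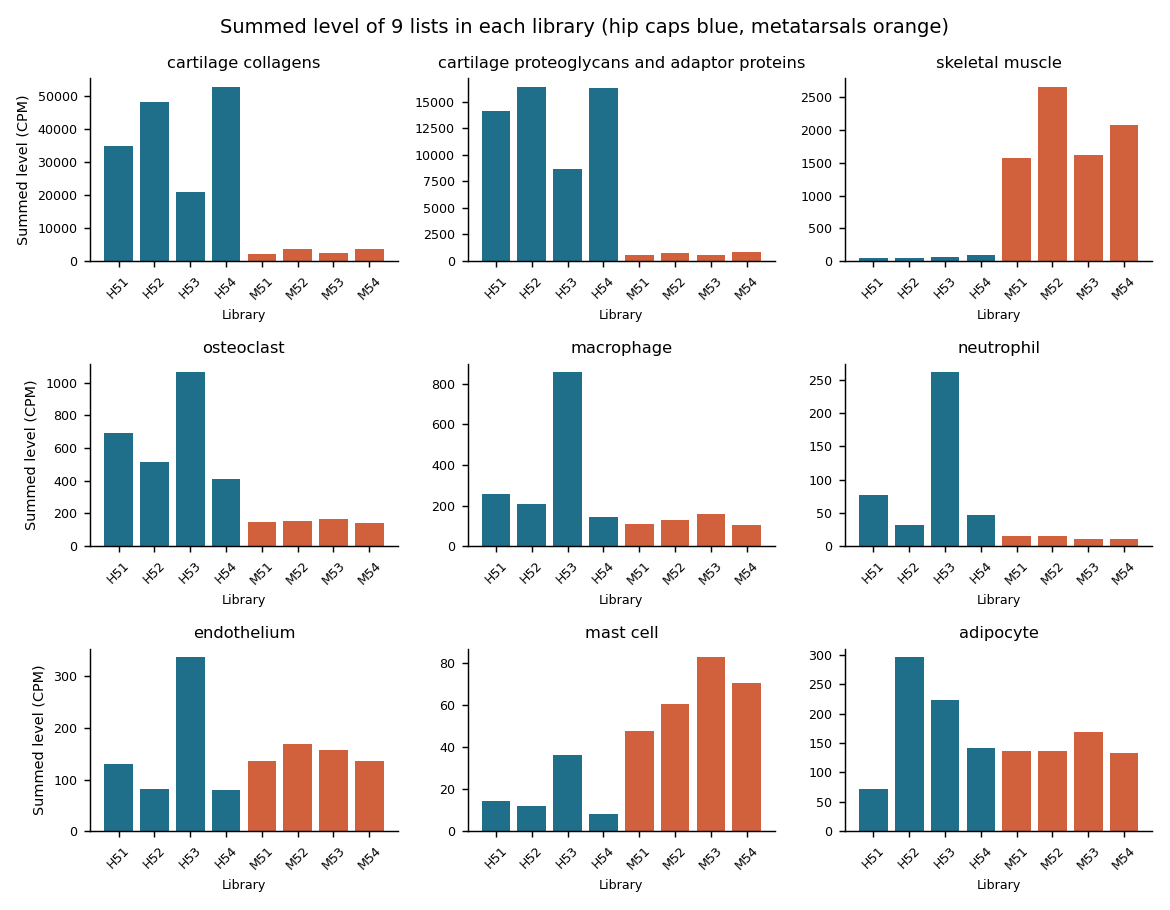
Summed level (CPM, linear axes from 0) of 9 gene lists in each library, hip caps in blue and metatarsals in orange. Cartilage lists are higher in every hip cap and lowest there in H53, skeletal muscle and mast cell lists are higher in every metatarsal, and macrophage, neutrophil, osteoclast and endothelial sums are highest in H53.

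Cell cycle and replication genes were higher in hip caps in 12 of 26 and lower in 1, with a median of 0.88. With library sizes alone only Rrm2 of the list was higher, and 5 genes were higher without M51, 7 without M52, 5 without M54 and 6 without the filter on counts. Mki67, a mark of cycling cells, had 104, 122, 271 and 72.5 CPM in hip caps and 44.4, 61.2, 66.2 and 57.5 CPM in metatarsals (log2 fold change 1.31, SE 0.39, adjusted p = 0.0249 from edgeR). H53 had more than 2 times the level of any other library, and the gene did not pass without M51, M52 or M54, without the filter on counts or with library sizes alone. Without H53, Mki67 was higher by 0.82 (adjusted p = 0.00786 from edgeR), and 9 genes were higher and 1 lower with a median of 0.52. Rrm2, a subunit of ribonucleotide reductase, was higher by 1.83 (SE 0.38, adjusted p = 0.00391 from edgeR), and E2f1 was the lower gene (-0.72) but did not pass without H51, H52, H54, M51 or M52.

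Of 13 mitochondrially encoded mRNAs, 0 passed in edgeR, with log2 fold changes from -0.46 to 0.46. At an unadjusted p under 0.05 there was 1, in DESeq2 1 passed as higher, and after removal of GC trends 5 did. The share of mitochondrially encoded genes in the counts was 2.95 ± 0.344% in hip caps and 4.09 ± 0.531% in metatarsals (SD, n = 4; exact permutation test, two-sided, p = 0.0286), a difference that did not remain once the most abundant gene was left out of the total (-0.672 percentage points, p = 0.1714). Among 20 genes of glycolysis and the hypoxia response, 1 was higher and 5 lower, with a median of 0.04. Over all genes tested 23.5% were higher and 20.2% lower, so the count of lower genes was near the general share. With library sizes alone 12 were lower and the median was -0.64. The lower ones included Car9, Ankrd37 and Egln3, which hypoxia-inducible factors switch on. Car9 (carbonic anhydrase 9) had 2.43, 1.91, 0.349 and 5.58 CPM in hip caps and 41.4, 53.9, 37.5 and 28.7 CPM in metatarsals (log2 fold change -3.95, SE 0.60, adjusted p = 0.00115 from edgeR). M52 had the most of it. Of the list, 14 genes did not pass, among them Slc2a1, Hk2, Bnip3, Ldha and Gapdh.

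Of 13 serpins and complement factors, 8 were higher and 3 lower in hip caps (median 2.52). Serpina1a, Serpina1b and Serpina1d encode α1-antitrypsin, an inhibitor of neutrophil elastase that liver secretes. Serpina1d had 104, 88.2, 43.3 and 103 CPM in hip caps and 0 counts in every metatarsal. Serpina1a had 80.1, 58.7, 29.7 and 62.6 CPM and likewise 0 counts. Set against the floor, the excess in hip caps was at least 513-fold and 350.4-fold (adjusted p = 7.98e-05 and 9.73e-05 from edgeR). Serpina1b had 86.3, 96.4, 33.5 and 60 CPM in hip caps and 0.392, 0.238, 0 and 0 CPM in metatarsals (log2 fold change 8.67, SE 0.66, adjusted p = 1.98e-05 from edgeR). The copies of this family are nearly identical, so the split of reads between them is uncertain. C4b, a complement component, had 230.1, 232, 121 and 301 CPM in hip caps and 44.9, 47.9, 33.4 and 28.4 CPM in metatarsals (log2 fold change 2.52, SE 0.28, adjusted p = 0.000101 from edgeR). C3, C1s1 and Serpina3n were lower, at -1.31, -1.33 and -1.22.

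Lars2, the mitochondrial leucyl-tRNA synthetase, was 1 of the 5 genes with the largest share of hip cap counts among those higher there. It had 8634, 2437, 6156 and 9122 CPM in hip caps and 3440, 1149, 1601 and 734 CPM in metatarsals (log2 fold change 1.93, SE 0.55, adjusted p = 0.0208 from edgeR). Within each tissue it was lowest or next to lowest in the libraries with the least of the most abundant gene, H52, M52 and M54, and it did not pass in 7 of the alternatives. The part of that gene in the difference was not tested.

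Xist, expressed from the inactive X chromosome, checked the sex of the tissues. It had 47.3, 17.8, 8.73 and 3.48 CPM in hip caps and 601, 1892, 1885 and 991 CPM in metatarsals (log2 fold change -6.12, SE 0.95, adjusted p = 0.00156 from edgeR). The level in hip caps of males was low but not 0, and the Y-linked Ddx3y had 75.8, 84, 65.6 and 92.4 CPM in hip caps and 46.5, 15.5, 19.6 and 42.6 CPM in metatarsals. Each metatarsal pool therefore held RNA with both Xist and Y-linked transcripts, M52 and M53 with the most Xist and the least Ddx3y. Of 5 sex-linked genes, 1 was higher and 1 lower, 2 were higher without M51, M53 or M54, and 0 passed as higher with library sizes alone, without the filter on counts or with 22 or 24 libraries in the fit. Differences in sex-linked genes cannot be told apart from those of tissue.

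The direction of these genes at other pressures was described in libraries that are not part of the comparison. Of the 4472 genes higher in hip caps at 5 MPa, 4157 (93.0%) had a higher mean log2 level in hip caps also at 0 MPa and 4099 (91.7%) at 50 MPa. Of the 3846 lower genes, 3653 (95.0%) and 3374 (87.7%) were also lower. Without 1 hip cap library at 0 MPa (HC4) and 1 at 50 MPa (H502), which stood apart, the shares were 91.7% and 95.2% at 0 MPa and 95.9% and 96.9% at 50 MPa. Hip caps at 0 and 50 MPa differ from those at 5 MPa in run or library type, so pressures were not compared. Prg4, Col10a1, Frzb, Kera, Hoxd13, Myh3 and Igf2 did not overlap between hip caps and metatarsals in all 24 libraries. Hoxd13, scaled over all 24 libraries, was at most 0.528 CPM in hip caps at 0 MPa and at least 54.6 CPM in metatarsals at 0 MPa.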

How the data were processed

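The authors trimmed reads with Trim Galore 0.6.5, quantified transcripts by kallisto, collapsed these to genes by tximport, and deposited estimated counts of 52178 genes without normalization, which were rounded to whole numbers here. Names came from GENCODE mouse release 21 (GRCm38), not the authors' annotation (GRCm39), and 3333 genes stayed unnamed. The table held 0 columns of other samples. The library type was taken from the labels. The run was taken from the study and is uncertain, since its kit numbers do not match its clustering plot. RNA integrity was low.

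The 8 libraries were fitted with edgeR 4.0.16 in R 4.3.3 (filterByExpr, TMM, robust quasi-likelihood, two-sided, Benjamini-Hochberg), with SE from the log2 fold change and F. Levels are CPM. A floor of 3 counts per library set lower bounds. Limits from counts cover counting error only. Named genes were the 12 highest and 12 lowest log2 fold changes among protein-coding genes past the threshold without overlap and with a mean of at least 10 CPM in the higher tissue (predicted genes and pseudogenes left out), the 5 protein-coding genes with the largest share of counts in each direction, the most abundant gene, and members of 40 lists. Members and lists were chosen with earlier results of these data known. Shares were tested by exact permutation.

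Alternatives were RLE factors, library sizes alone, TMM without mitochondrial genes and the most abundant gene, DESeq2 1.42.0, other filters, protein-coding genes, 22 or 24 libraries in the fit, a replicate block, removal of GC trends and leaving out each library. In simulated data with 200 changed genes of 19020, edgeR recovered 65% of 2-fold and 87% of 4-fold changes with 6 false calls. Unlike the data, the simulation changed a small share of genes, equally up and down, and gave both tissues the same dispersion. Its rates therefore do not carry over to this comparison. Library pairs of a tissue differed beyond counting noise (chi-square of 18.8 to 117 per degree of freedom), so none was counted as a duplicate. Promoters came from RefSeq (GRCm38.p6).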

Additional observations from a re-analysis of the deposited data

Results flagged for a closer look

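Single libraries lay apart from the other 3 of their tissue in the following values, by the ratio of the gap to the range. Chance marks about 1 in 20 such groups, and 177 were examined to give the 13 values below. H53 accounted for 7 of them among the hip caps. It was low in F5 (101.2 CPM, against 177.8 to 184.1 CPM in the others), Comp (1583 CPM, against 2756 to 2978 CPM) and Gli1 (34.9 CPM, against 55.7 to 58.8 CPM). It was high in Sfrp2 (4.95 CPM, against 1.49 to 1.75 CPM), Igfbp5 (172.7 CPM, against 67.3 to 79.5 CPM), S100a9 (60.4 CPM, against 2.54 to 12.2 CPM) and Lyz2 (553.3 CPM, against 72.9 to 123.6 CPM). H52 was low in Irx3 (23.6 CPM, against 30.5 to 31.8 CPM), high in the share of protein-coding genes (65.8%, against 48.6% to 51.2%) and low in the share of genes without a name (27.5%, against 42.7% to 45.3%). H54 was high in Myod1 at 0.277 CPM, against 0.0582 to 0.0796 CPM.

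Among the metatarsals, M51 was high in Col10a1 (33.5 CPM, against 0.595 to 3.86 CPM) and M52 was low in Hoxd12 (10.4 CPM, against 13.9 to 14.0 CPM). Causes were not tested.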

How the results depend on the processing

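Against 8318 genes past the threshold, the alternatives gave 6932 (without M54) to 9268 (without H53), apart from those named next. With all 24 libraries in the fit 4343 passed (2336 higher, 2007 lower), of which 4141 were among the 8318. With HC4 and H502 left out of that fit (22 libraries), 7977 passed, of which 7189 were among the 8318. Both fits held a term for library type and none for run. With an absolute log2 fold change of at least 1, 4062 passed (1978 and 2084). With library sizes alone 11564 passed (1342 and 10222), and 21 of the genes shared with the 8318 had the opposite direction. DESeq2 gave 9103, of which 8097 were shared. The difference in mitochondrial share was -0.672 without the most abundant gene (p = 0.1714, exact permutation test), and the median of the Hox list was 1.39 with at least 10 counts in every library. Of the counts of genes per list, 740 stayed within 1.5 times the reported count, 36 fell and 24 rose beyond it. Of the list medians, 638 stayed within 0.5 on the log2 scale and 102 moved further. The 34 genes named for their change or abundance kept their call in 673 recomputed values and lost it in 9 (7 for Lars2, 2 for Gnas). They had been picked from the same data for large changes or high abundance, so this tally does not speak for other genes. The causes of all these changes were not tested.

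Libraries with equal replicate numbers were not treated as pairs in the main fit. The deviations of equal-numbered libraries correlated at 0.07 to 0.20 and those of other pairs at -0.24 to 0.22, and 5 of 8 libraries correlated best with their own number. With a replicate block 8298 genes passed, of which 7810 were among the 8318. Depth limits genes near the floor of 3 counts, which was 0.196 CPM in hip caps and 0.165 CPM in metatarsals. The dispersion was 0.066 in hip caps and 0.032 in metatarsals.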
